A study of Mus musculus with 12 samples.

Results

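Interferon-stimulated genes are the genes that cells switch on after an interferon binds its receptor, and 38 of them were followed here by their symbols. Rows for 37 were found among the 15803 transcripts with a read in at least 1 library, and Cmpk2 was not analysed here. The symbols were sorted by role into 4 sensors of nucleic acid, 4 transcription factors, 12 antiviral effectors, 9 genes of the ISG15, ubiquitin and ADP-ribose pathway, 2 guanylate-binding proteins and 6 others. All 37 passed the filter on low values in both assays, and none had 0 reads in any library.

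Type I interferons signal through the receptor chains IFNAR1 and IFNAR2 and the kinases JAK1 and TYK2, which phosphorylate STAT proteins. STAT2 acts in a complex with IRF9 that binds the interferon-stimulated response element (ISRE) in the promoters of its target genes, and the gamma-activated site (GAS) is the element through which interferon gamma acts. In tumour cells the interferon itself can be induced by cytosolic DNA through cGAS and STING or by double-stranded RNA through RIG-I and MDA5, and many cell lines hold a basal level of these genes without added interferon.

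The cells were KPC, a single mouse pancreatic ductal adenocarcinoma line from tumours of animals that carry Pdx1-Cre with conditional alleles, Trp53 LSL-R172H among them. Cre under the Pdx1 promoter switches these on in the pancreatic lineage, and every group shares them. They received PBS (untreated in the labels, which give it no duration) or 20 μM cisplatin (Cis), a platinum drug that crosslinks DNA, for 6 h or 21 h. Both Cis times share this PBS group, so the length of exposure to Cis cannot be told apart from time in culture. From each group 2 ribosome profiling libraries (RNase I footprints, lysed with cycloheximide) and 2 RNA-seq libraries were made, 12 in all. The labels do not say whether replicates were separate cultures, and the study's methods speak only in general of repeats or independent samples, so p-values measure the spread between these libraries, which may be technical.

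Footprint libraries held 3375480 to 5204127 reads and RNA libraries 1985344 to 2901692. In RNA 51.8 to 56.6% of reads lay on Lars2, Tmem38b and Mettl26. A member had a median of 379.5 reads per footprint library (22 to 4252) and 95.5 per RNA library (20 to 629). The median standard error of its log2 fold change was 0.11 in footprints and 0.17 in RNA. Without molecular identifiers these read numbers cover counting error only. Of the 8 ductal and epithelial markers, Krt8, Krt18, Krt19 and Cdh1 were high while Epcam and Cldn4 were at or near 0. The summed footprint level of the list was 9113 to 9794 RPKM in PBS, 9314 to 9371 at 6 h and 6728 to 6861 at 21 h. The 8 leukocyte markers, whose cells express many interferon-stimulated genes, summed to 2.07 to 2.35 RPKM in PBS, 1.73 to 2.31 at 6 h and 3.76 to 10.4 at 21 h, with 3 of the 8 at 0 in every footprint library and at most 3 reads of Ptprc, the pan-leukocyte marker. The acinar, fibroblast and endothelial lists summed to at most 7.59, 9.72 and 0.666 RPKM, and 6 of the 8 acinar and 1 of the 5 endothelial markers were at 0 in every footprint library. The part of these lists in the changes below was not tested, and in bulk libraries a smaller number of expressing cells cannot be told apart from less RNA per cell.

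The genes were well expressed without the drug. In PBS the median member stood at 59.2 footprint RPKM (reads normalised to library size and to the kilobases of coding sequence), from 4.57 for Mx1 to 1305 for Isg15, against 17.6 for the median of all transcripts tested. In RNA, counted per kilobase of whole transcript, the median was 14.2 RPKM, from 2.57 for Herc6 to 177 for Bst2, against 6.73 over all. The members together held 0.495 to 0.565% of footprint reads and 0.211 to 0.229% of RNA reads. Their summed footprint RPKM was 5084 and 4930 in PBS, 5503 and 5394 at 6 h and 4685 and 4822 at 21 h. The sum thus stood highest in both 6 h libraries and lowest in both 21 h libraries. Isg15 alone makes up much of it, and Bst2, tetherin, which holds budding virions at the cell surface, was the next most abundant. Bst2 footprints were at 840.1 and 842 RPKM in PBS, 915 and 867 at 6 h and 723 and 841 at 21 h, with log2 fold changes (± the standard error, SE, throughout) of 0.07 ± 0.09 at 6 h and -0.14 ± 0.09 at 21 h, neither called. Bst2 RNA was at 181 and 174 RPKM in PBS, 175 and 186 at 6 h and 171 and 182 at 21 h, and all 3 groups overlapped.

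The ratio of footprint to RNA level in PBS, a measure of resting translation on 2 different length scales, had a median of 4.00 over the members and 3.44 over all transcripts tested for it. Irf7 stood at the low end with a ratio of 0.318, at percentile 0.365 of the transcripts tested, and Mx1 followed at 0.980. Oas1a and Isg15 stood at the high end, at 8.63 and 8.60. The order of the members on this ratio is a description with 2 libraries per assay.

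The ISRE was looked for on either strand of RefSeq promoters (GRCm38.p6, 250 bases before to 50 bases after each gene start, matched by symbol) as GAAA, any 2 bases and GAAA again. It was found in 13 of the 28 members with both a promoter in the table and values here. The share over all 27025 genes with a promoter there was 3.99%. Among members that later rose in footprints at 21 h 2 of 8 held it, among those that fell 6 of 9, and among those not called 5 of 11. The windows below are 30 bases long and show the match in capitals, overlapping matches joined; they are given for 3 genes that fell in footprints between 6 h and 21 h (Ifit1, Ifit3 and Isg15) and 2 that rose against PBS by 21 h (Stat2 and Trim21).
Ifit1, chr19:34640775-34640804, plus strand, 104 bases before the start: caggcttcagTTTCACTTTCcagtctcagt
Ifit1, chr19:34640794-34640823, plus strand, 85 bases before the start: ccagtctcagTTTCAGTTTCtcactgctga
Ifit3, chr19:34583363-34583392, plus strand, 156 bases before the start: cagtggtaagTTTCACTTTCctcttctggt
Ifit3, chr19:34583397-34583426, plus strand, 122 bases before the start: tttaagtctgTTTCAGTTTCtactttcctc
Isg15, chr4:156200871-156200900, minus strand, 78 bases before the start: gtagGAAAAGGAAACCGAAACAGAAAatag
Stat2, chr10:128270266-128270295, plus strand, 222 bases before the start: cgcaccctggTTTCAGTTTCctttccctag
Trim21, chr7:102565447-102565476, minus strand, beginning 13 bases after the start: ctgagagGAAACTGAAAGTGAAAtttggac
Ifit1 and Ifit3, which fell, each held a pair of separate matches, Isg15 held 3 overlapping ones, and Stat2 and Trim21, which rose, held 1 and 2. Of the others that fell against PBS, Ifih1 and Ddx58 held 1, Oas1a 2 overlapping ones and Trim30a 1 in each of 2 promoters. Ifit2, Ifi44 and Lgals3bp, which also fell, held none. Among other members not called, Rsad2 and Gbp2 held 1, and Bst2 and Gbp3 held 2 overlapping ones. Of the 4 transcription factors Stat2 was the member with the letters, and Irf1, Irf7 and Irf9 had none in this window. The GAS, searched as TTCNNNGAA, which reads the same on both strands, was found in 7 of the 28 (Irf1, Ifit2, Oas1a, Bst2, Samhd1, Adar and Ifi35) and in 9.55% of all genes. A match is a description of letters and not a bound site, and the table held no promoter for Dhx58, Zbp1, Mx1, Mx2, Usp18, Parp9, Parp14, Ifi27 and Rtp4.

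After 6 h of Cis no member was called in footprints at an adjusted p of 0.05 by limma with the Benjamini-Hochberg adjustment over all 10390 transcripts. Of all transcripts 1.05% were called higher and 0.991% lower, 2.04% in either direction. At an unadjusted p under 0.05, 5 members were higher and 1 lower, 16.2% of the members against 21.3% of all transcripts. Limma-voom on recovered reads called 2 members higher, 5.41% against 12.3% of all, so both shares were below the background. The median log2 fold change was -0.00 over the members and -0.01 over all transcripts. Isg15 had the lowest p of those 5, at 0.29 ± 0.07 and an adjusted p of 0.0691 (limma). Mx1 followed by p at 0.80 ± 0.25, then Ifit1 at 0.29 ± 0.09, Trim21 at 0.34 ± 0.14 and Ifi27 at 0.25 ± 0.11. Ifit2 was the lower one, at -0.38 ± 0.14. Isg15 and Ifit1 were the 2 that voom called, with adjusted p of 0.00783 and 0.0402. In RNA no member was called at 6 h by limma either, nor was any of the 9459 transcripts (0.0%), and voom called no member and 2.41% of all. At an unadjusted p under 0.05, 3 members were higher (8.11%, against 11.5% of all transcripts in either direction), Stat2 at 0.69 ± 0.26, Usp18 at 0.36 ± 0.16 and Samhd1 at 0.30 ± 0.12.

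By 21 h members were called in both directions, as were transcripts over the whole series. Levels were scaled within each assay, so a rise or fall is relative to the other transcripts and does not measure output per cell. In footprints 9 of 37 were called higher, where 18.9% of all transcripts were, and 11 were called lower, where 20.2% were. In either direction 54.1% of the members and 39.1% of all transcripts were called, and by voom 59.5% and 44.7%. The median member's footprint level was above that of the median transcript. The median log2 fold change was -0.09 over the members and 0.01 over all transcripts. The transcription factors all rose, 3 of 4 sensors fell, and of the effectors the IFITs and Oas1a fell while Mx2, Oasl1 and Adar rose. In RNA 3 members rose, against 11.6% of all transcripts, and 4 fell, against 12.2%. That was 18.9% of the members in either direction, against 23.8% of all transcripts, and by voom 29.7% against 31.8%. The median log2 fold change in RNA was -0.06 over the members and 0.02 over all. Calls are those of limma unless voom is named, and at 21 h voom called all of these and also Dtx3l and Gbp2 in footprints and Ifit2, Stat2, Trim25 and Trim30a in RNA. Since both times were compared with the same PBS libraries, their values are given side by side without a test of likeness. Of the 20 footprint calls at 21 h, 9 held without the first PBS library, where Gbp2 was called in addition, 10 without the second and 12 without either 21 h library. Ifi44, Ifit1, Ifit3, Irf1, Lgals3bp and Trim30a were called in all 6 fits that left out a library and under all 9 other settings, and each of the other calls failed in at least 1 of those fits. In RNA 1 and 2 of the 7 calls held without the first and the second PBS library, and 3 without either 21 h library.

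**Figure D1:**
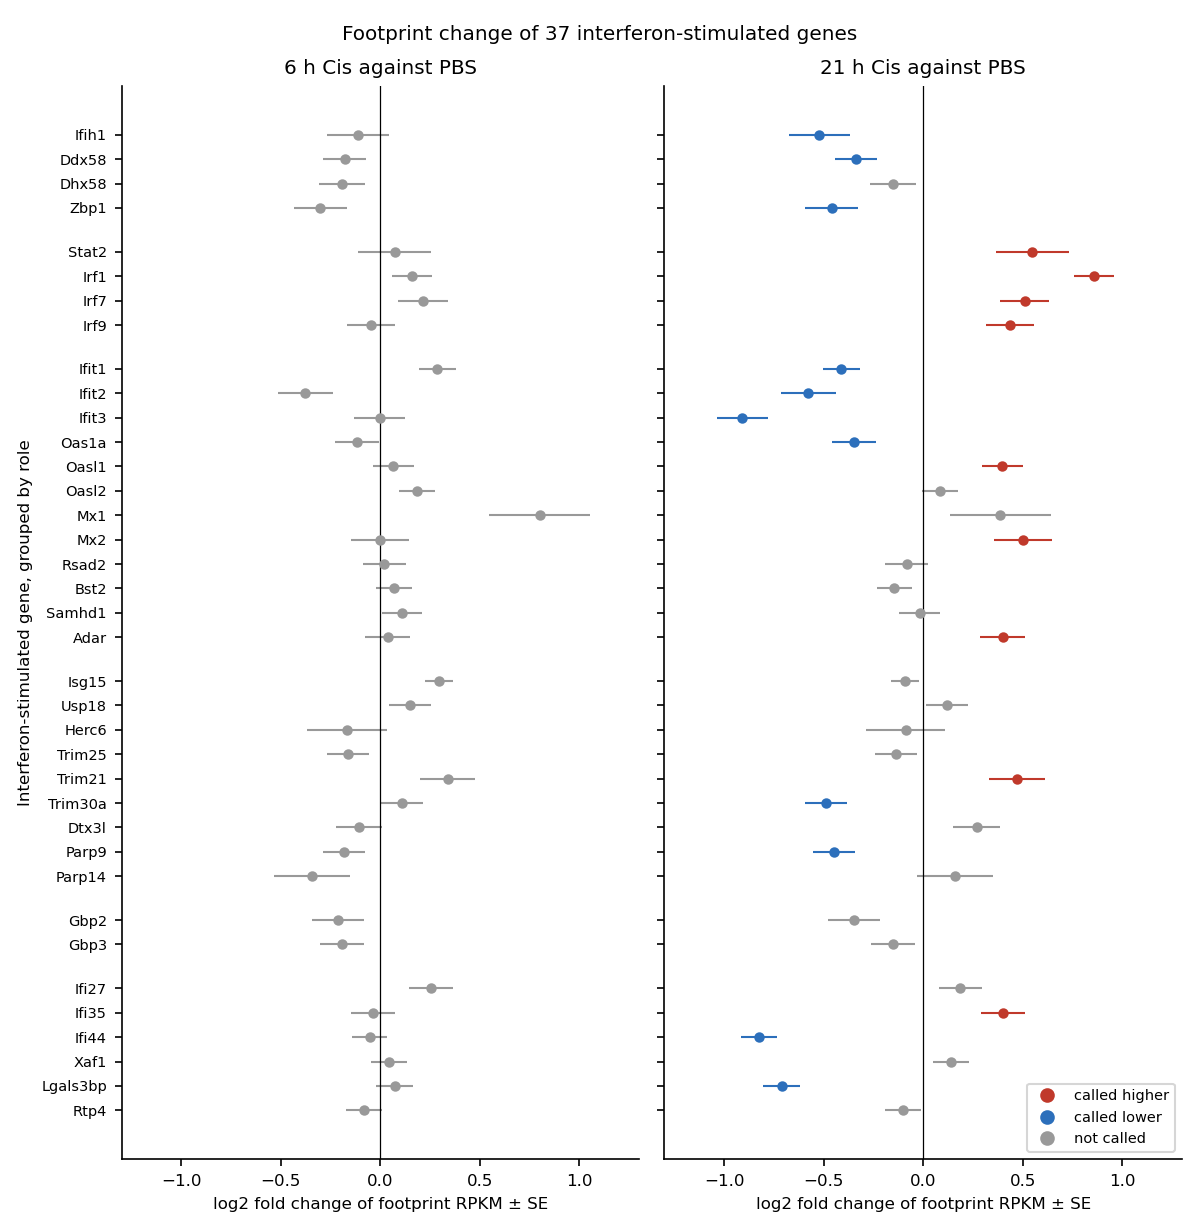
Log2 fold change of footprint RPKM (points) with its standard error (bars) for the 37 interferon-stimulated genes, grouped by role, after 6 h (left) and 21 h (right) of Cis against PBS, with 2 libraries per group. Coloured points were called at an adjusted p of 0.05. None is coloured at 6 h, and at 21 h 9 are called higher, the 4 transcription factors among them, and 11 lower.

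The transcription factors carry the signal from the receptor to the promoters. All 4 were called higher in footprints at 21 h, with a median log2 fold change of 0.53, and 1 of 4 was called in RNA. Over all transcripts 18.9% were called higher in footprints and 11.6% in RNA. Irf1, a factor that interferon gamma and other stimuli induce directly, rose most. Irf1 footprints were at 56.1 and 62.4 RPKM in PBS, 66.3 and 67.2 at 6 h and 110.2 and 110.2 at 21 h, and both 21 h libraries stood above all others. The rise was 1.81-fold (log2 0.86 ± 0.10, adjusted p = 0.000384, limma). Irf1 RNA was at 17.3 and 13.1 RPKM in PBS, 16.5 and 14.8 at 6 h and 23.9 and 17.9 at 21 h, which gave log2 0.37 ± 0.20 and was not called, although both 21 h libraries were above both PBS libraries. Stat2, the partner of IRF9, was at 9.92 and 10.3 RPKM in PBS, 9.16 and 12.6 at 6 h and 15.2 and 15.6 at 21 h in footprints. Its 21 h libraries stood above the rest, with log2 0.55 ± 0.18 and an adjusted p of 0.0441 (limma). Stat2 RNA was at 2.22 and 3.45 RPKM in PBS, 4.12 and 5.02 at 6 h and 5.08 and 4.57 at 21 h, so it was higher in all 4 Cis libraries than in PBS, yet not called at 21 h (log2 0.62 ± 0.26, adjusted p = 0.109, limma). Irf9, the DNA-binding part of that complex, was at 40.8 and 40.3 RPKM in PBS, 42.8 and 36.7 at 6 h and 59.7 and 53.4 at 21 h in footprints and rose at 21 h by log2 0.44 ± 0.12. Irf9 RNA was at 11.4 and 11.1 RPKM in PBS, 11.1 and 13.3 at 6 h and 16.5 and 19.1 at 21 h. Irf9 was the factor called in both assays, the RNA at log2 0.56 ± 0.16 with an adjusted p of 0.0305 (limma), and the 21 h libraries overlapped no other group in either assay. Irf7, which amplifies the production of type I interferon, was at 33.6 and 31.5 RPKM in PBS, 40.7 and 35.9 at 6 h and 44.5 and 51.2 at 21 h in footprints and rose by log2 0.51 ± 0.12 (adjusted p = 0.0117, limma). Irf7 RNA was at 102 and 102 RPKM in PBS, 96.7 and 103 at 6 h and 117 and 127 at 21 h, higher than its footprint level in every group, and its change of 0.17 ± 0.08 was not called. Of the fits that left out 1 library, the call of Stat2 failed in 4 of 6, that of Irf9 in 3 and that of Irf7 in 2, with adjusted p up to 0.163, 0.0817 and 0.0612 (limma), and that of Irf1 held in all 6.

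The sensors detect foreign or displaced nucleic acid. In footprints at 21 h 3 of 4 fell (median log2 fold change -0.40), where 20.2% of all transcripts did, and none was called in RNA. Ifih1 encodes MDA5, which binds long double-stranded RNA. Ifih1 footprints were at 26.6 and 27.6 RPKM in PBS, 24.7 and 25.8 at 6 h and 16.8 and 21.97 at 21 h. Its RNA was at 4.16 and 4.73 RPKM in PBS, 3.68 and 3.56 at 6 h and 3.45 and 3.67 at 21 h. The footprints fell by 0.52 log2 units (SE 0.15, adjusted p = 0.0264, limma), but by 0.32 without the first 21 h library, where the adjusted p was 0.130 (limma). Ddx58 encodes RIG-I, which binds short double-stranded RNA with a 5′ triphosphate. Ddx58 footprints were at 47.3 and 44.5 RPKM in PBS, 41.6 and 40.2 at 6 h and 35.9 and 38.3 at 21 h. In RNA it was at 13.6 and 12.1 RPKM in PBS, 10.9 and 9.17 at 6 h and 9.86 and 10.6 at 21 h. In each assay both 6 h and both 21 h libraries were below PBS, and the footprint change at 21 h was -0.34 ± 0.11, a call (adjusted p = 0.0346, limma) that failed without any 1 of the 6 libraries (adjusted p up to 0.124, limma). Zbp1, a sensor of left-handed nucleic acid that triggers necroptosis, was at 23.2 and 21.9 RPKM in PBS, 17.6 and 19.2 at 6 h and 17.4 and 16.02 at 21 h in footprints. RNA levels were 6.74 and 7.80 RPKM in PBS, 5.57 and 7.40 at 6 h and 7.12 and 5.77 at 21 h. Its footprints fell by 0.46 log2 units (SE 0.13, adjusted p = 0.0251, limma) with no overlap with PBS, while its RNA libraries overlapped. Dhx58, which encodes LGP2, a regulator of the other RNA sensors, was not called, at log2 -0.15 ± 0.12 in footprints.

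The IFIT proteins bind viral RNA and block its translation, and all 3 fell in footprints. Their genes are neighbours on chromosome 19. Ifit3 footprints were at 135 and 106 RPKM in PBS, 113 and 129 at 6 h and 61.5 and 69.1 at 21 h, so both 21 h libraries lay below every other library. The fall was 1.88-fold (log2 -0.91 ± 0.13, adjusted p = 0.000956, limma). Ifit3 RNA was at 29.1 and 31.2 RPKM in PBS, 36.1 and 33.8 at 6 h and 13.5 and 23.3 at 21 h, above PBS in both 6 h libraries and below it in both 21 h libraries. Its RNA change at 21 h was -0.83 ± 0.20 (adjusted p = 0.0149, limma), and -0.48 without the first 21 h RNA library. Ifit1 footprints were at 105 and 98.5 RPKM in PBS, 125 and 126 at 6 h and 74.6 and 82.04 at 21 h. They stood above PBS in both 6 h libraries and below PBS in both 21 h libraries, with log2 -0.41 ± 0.09 at 21 h (adjusted p = 0.00835, limma). Ifit1 RNA was at 19.7 and 16.6 RPKM in PBS, 16.5 and 17.4 at 6 h and 12.1 and 13.3 at 21 h, which fell at 21 h by 0.57 log2 units (SE 0.15, adjusted p = 0.0222, limma). Ifit2 footprints were at 23.03 and 21.8 RPKM in PBS, 17.4 and 17.2 at 6 h and 14.2 and 16.2 at 21 h. The RNA stood at 7.34 and 7.76 RPKM in PBS, 7.65 and 5.90 at 6 h and 4.95 and 5.39 at 21 h. Ifit2 was the IFIT already below PBS at 6 h, and at 21 h its footprints were called (log2 -0.58 ± 0.14, adjusted p = 0.0108, limma) and its RNA, at -0.58 ± 0.20, was not. Ifit3b, a near copy of Ifit3, has a row of its own at 204 to 235 footprint reads in PBS and 101 in each 21 h library. It fell by 0.68 log2 units. How reads shared between such copies were counted is not given in the sources used here. The values of Ifit3, Ifit1, Oas1a, Trim30a, Ifi27 and the GBPs, which all have close relatives, are uncertain to that extent.

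The OAS family makes the oligoadenylates that activate RNase L, and its members went different ways. Oas1a footprints were at 127 and 101 RPKM in PBS, 105 and 106 at 6 h and 91.7 and 90.8 at 21 h. Oas1a RNA was at 12.7 and 13.7 RPKM in PBS, 16.8 and 12.6 at 6 h and 11.6 and 16.2 at 21 h. The footprint fall of 0.35 log2 units (SE 0.11, adjusted p = 0.0336, limma) was 0.21 without the first PBS library (adjusted p = 0.174, limma), and the RNA libraries overlapped. Oasl1, which lacks the synthetase activity and restrains the translation of Irf7, was at 189 and 166 RPKM in PBS, 204 and 173 at 6 h and 234 and 245 at 21 h in footprints. Its RNA was at 55.1 and 49.6 RPKM in PBS, 56.4 and 62.6 at 6 h and 65.9 and 79.4 at 21 h. It rose in both, by log2 0.40 ± 0.10 in footprints (adjusted p = 0.0158, limma) and 0.38 ± 0.12 in RNA (adjusted p = 0.0385). Oasl2 was not called, at log2 0.08 ± 0.09 in footprints.

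Mx2, a GTPase that restricts viruses in the cytoplasm, was at 14.1 and 14.2 RPKM in PBS, 15.2 and 13.4 at 6 h and 21.8 and 19.7 at 21 h in footprints. In RNA it was at 5.54 and 7.12 RPKM in PBS, 6.66 and 8.41 at 6 h and 10.6 and 10.5 at 21 h. It rose in both, by log2 0.50 ± 0.15 and 0.63 ± 0.20 (adjusted p = 0.0250 and 0.0467, limma), with no overlap with PBS. Mx1, its nuclear relative, had few reads (22 to 49 in footprints) and was not called at log2 0.39 ± 0.25. Adar, which edits adenosine in double-stranded RNA and so keeps MDA5 silent, was at 46.4 and 50.1 RPKM in PBS, 50.2 and 49.8 at 6 h and 61.2 and 69.9 at 21 h in footprints. RNA levels were 13.2 and 13.1 RPKM in PBS, 13.98 and 13.8 at 6 h and 15.2 and 18.5 at 21 h. Its footprints rose by log2 0.40 ± 0.11 (adjusted p = 0.0226, limma), and its RNA change of 0.25 ± 0.15 was not called. Rsad2 (viperin, at log2 -0.08 ± 0.11), Bst2 and the dNTPase Samhd1 (-0.02 ± 0.10) were not called at 21 h in either assay. In RNA limma gave the 12 effectors 2 rises (Mx2, Oasl1) and 2 falls (Ifit1, Ifit3), where 11.6% and 12.2% of all transcripts rose and fell.

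**Figure D2:**
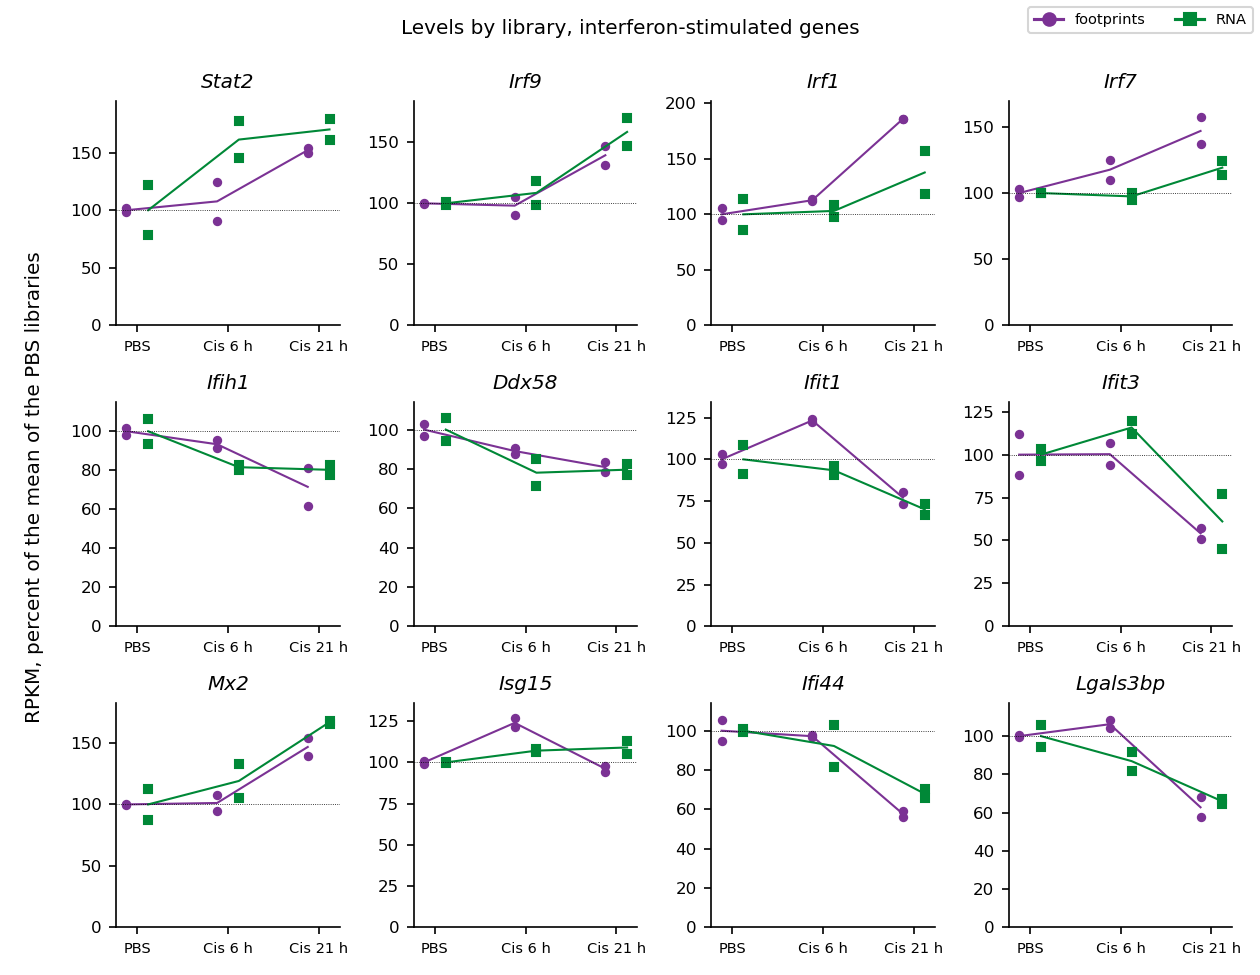
RPKM in each library as a percent of the mean of the PBS libraries, for 12 interferon-stimulated genes in footprints (circles) and RNA (squares); lines join the group means of 2 libraries and the y axes start at 0. Stat2, Irf9, Irf1, Irf7 and Mx2 footprints climb at 21 h, Ifit1 and Isg15 footprints peak at 6 h, and Ifit3, Ifi44 and Lgals3bp lie below PBS at 21 h in both assays.

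ISG15 is a ubiquitin-like protein that is joined to other proteins. Of the 9 genes of this group 1 rose and 2 fell in footprints at 21 h, where 18.9% and 20.2% of all transcripts did. None was called in RNA by limma, and voom called Trim25 and Trim30a lower. Isg15 footprints were at 1317 and 1294 RPKM in PBS, 1655 and 1582 at 6 h and 1278 and 1232 at 21 h. Both 6 h libraries stood above the other 4, and the 21 h libraries lay just below PBS, at log2 -0.09 ± 0.07. Isg15 RNA was at 152 and 151 RPKM in PBS, 161 and 164 at 6 h and 159 and 171 at 21 h, above PBS in all 4 Cis libraries and not called. Trim21, a cytosolic antibody receptor and ubiquitin ligase, was at 15.3 and 14.9 RPKM in PBS, 18.5 and 20.3 at 6 h and 23.1 and 20.2 at 21 h in footprints. The RNA stood at 3.05 and 3.95 RPKM in PBS, 4.15 and 4.19 at 6 h and 3.69 and 3.43 at 21 h. It rose in footprints by log2 0.47 ± 0.14 (adjusted p = 0.0267, limma), with both 6 h libraries also above PBS, and its RNA, with 20 to 32 reads, overlapped. Trim30a, a ligase that restrains NF-kB signalling, was at 51.7 and 52.6 RPKM in PBS, 59.3 and 54.6 at 6 h and 37.01 and 38.9 at 21 h in footprints. Trim30a RNA was at 14.2 and 14.6 RPKM in PBS, 13.9 and 15.7 at 6 h and 10.6 and 11.7 at 21 h. Its footprints fell by 0.49 log2 units (SE 0.11, adjusted p = 0.00681, limma), while its RNA change of -0.44 ± 0.15 was not called (adjusted p = 0.0593). Parp9, the partner of the ligase DTX3L, was at 61.6 and 63.6 RPKM in PBS, 58.5 and 52.9 at 6 h and 48.4 and 45.4 at 21 h in footprints. Its RNA was at 15.1 and 11.4 RPKM in PBS, 12.4 and 10.9 at 6 h and 12.8 and 12.9 at 21 h. The footprints fell by 0.45 log2 units (SE 0.11, adjusted p = 0.0103, limma) and the RNA libraries overlapped. Dtx3l, whose gene lies beside Parp9, was at 36.2 and 34.3 RPKM in PBS, 32.3 and 33.8 at 6 h and 40.9 and 46.7 at 21 h in footprints. In RNA it was at 12.9 and 14.2 RPKM in PBS, 11.4 and 13.9 at 6 h and 14.4 and 13.2 at 21 h. Dtx3l was thus above PBS in both 21 h footprint libraries, where Parp9 was below, but was not called against PBS (log2 0.27 ± 0.12, adjusted p = 0.101, limma). Trim25, the ligase that activates RIG-I, was at 149 and 153 RPKM in PBS, 136 and 137 at 6 h and 155 and 128 at 21 h in footprints. RNA levels were 34.4 and 38.8 RPKM in PBS, 35.2 and 41.1 at 6 h and 31.6 and 30.04 at 21 h. Against PBS it was not called by limma, and voom called its RNA lower at 21 h (log2 -0.33, adjusted p = 0.00307). Usp18, which removes ISG15 and blocks IFNAR2, Herc6, the mouse ligase for ISG15, and Parp14 had footprint changes of 0.12 ± 0.11, -0.09 ± 0.20 and 0.16 ± 0.19 and were not called.

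Of the remaining genes 1 rose and 2 fell in footprints at 21 h, and both that fell did so in RNA. Over all transcripts 18.9% rose and 20.2% fell in footprints, and 12.2% fell in RNA. Ifi44, an antiviral protein, was at 152 and 137 RPKM in PBS, 142 and 139.7 at 6 h and 85.9 and 80.96 at 21 h in footprints. The RNA stood at 27.4 and 27.00 RPKM in PBS, 22.2 and 27.98 at 6 h and 17.9 and 19.1 at 21 h. It had the lowest adjusted p of all members in footprints, with a fall of 1.77-fold (log2 -0.83 ± 0.09, adjusted p = 0.000258, limma), and -0.63 ± 0.14 in RNA (adjusted p = 0.0118). Lgals3bp, a secreted glycoprotein that binds galectin-3, was at 472 and 476 RPKM in PBS, 494 and 513 at 6 h and 273 and 322 at 21 h in footprints. Lgals3bp RNA was at 71.8 and 64.2 RPKM in PBS, 55.8 and 62.5 at 6 h and 45.7 and 43.9 at 21 h. Its footprints fell by 0.71 log2 units (SE 0.09, adjusted p = 0.000667, limma) and its RNA by 0.68 (SE 0.11, adjusted p = 0.00285), the one RNA call at 21 h that held in every fit that left out a library. Ifi35, which dimerises with NMI, was at 97.6 and 117 RPKM in PBS, 106 and 105 at 6 h and 146 and 144 at 21 h in footprints. Its RNA was at 17.3 and 18.7 RPKM in PBS, 22.6 and 14.9 at 6 h and 19.9 and 21.4 at 21 h. Its footprints rose by log2 0.40 ± 0.11 (adjusted p = 0.0194, limma), but by 0.25 without the first PBS library, and its RNA change was 0.11 ± 0.19. Ifi27, Xaf1 and Rtp4 had footprint changes from -0.10 to 0.19 and were not called. The guanylate-binding proteins Gbp2 and Gbp3, GTPases that attack vacuoles of pathogens, were below PBS in both 21 h footprint libraries at log2 -0.35 ± 0.13 and -0.15 ± 0.11, not called by limma, and voom called Gbp2 lower (adjusted p = 0.0225).

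The change of translation efficiency (TE), the footprint change less the RNA change in 1 model over all 12 libraries, was called for no member at 6 h or at 21 h by limma, where 0.0% and 0.408% of 9312 transcripts were called. At an unadjusted p under 0.05 there was 1 member at each time (2.70%, against 7.65% and 12.7% of all), Mx1 at 6 h (0.80 ± 0.35, SE) and Irf7 at 21 h (0.34 ± 0.15, SE), and voom called none at either. TE changes at 21 h ran from -0.34 for Parp9 to 0.52 for Trim21, with a median of 0.03 over the members and -0.04 over all. Irf1, at 0.49 ± 0.24 (SE), and Trim21, at 0.52 ± 0.24, were the highest. The median standard error of a TE change was 0.20, against 0.11 for a footprint change. Of the 20 members called in footprints at 21 h, 7 were called in RNA too, and for the other 13 the TE test gave no call either way.

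**Figure D3:**
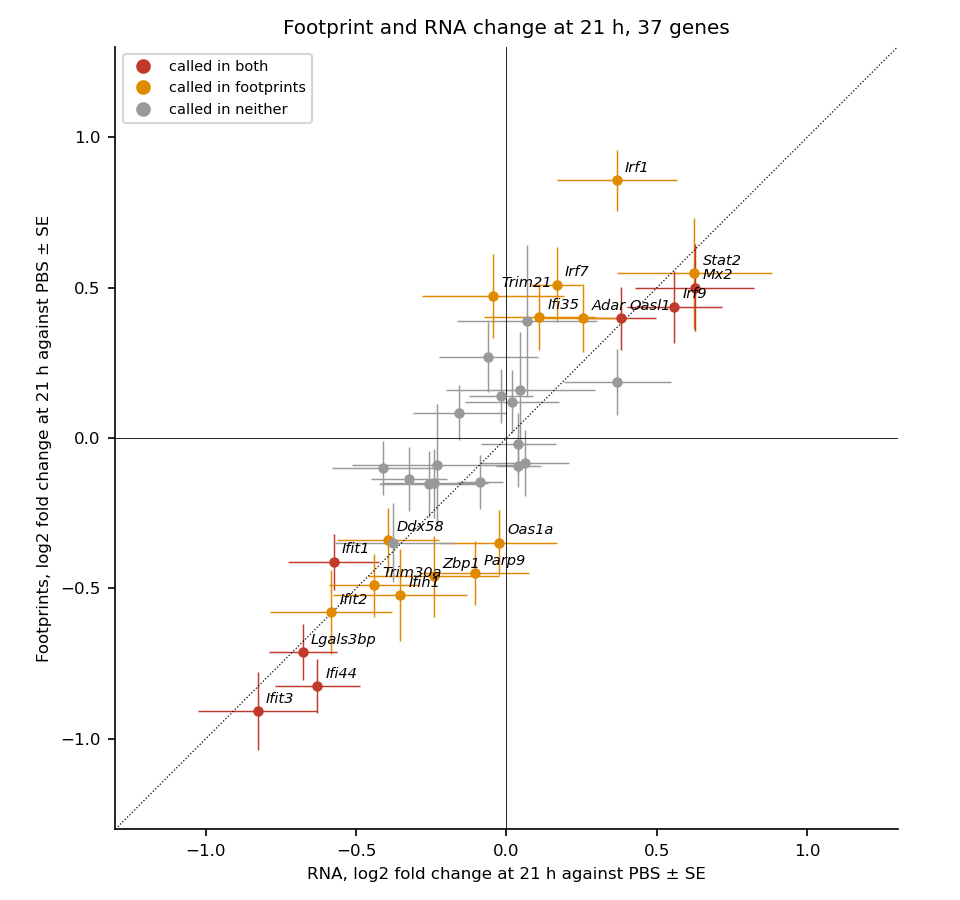
Log2 fold change at 21 h against PBS in RNA (x axis) and in footprints (y axis) for the 37 genes, with standard errors as bars and the line of equal change dotted. The 7 genes called in both assays lie near the line, Irf9, Mx2 and Oasl1 at the upper right and Ifit3, Ifi44, Lgals3bp and Ifit1 at the lower left, and Irf1 and Trim21 lie above it.

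Between 6 h and 21 h, a comparison in which the PBS libraries enter only the scaling, the filter and the estimate of spread, 7 members rose in footprints, against 15.0% of all transcripts, and 6 fell, against 15.7% (30.7% in either direction). Isg15 and Ifit1, which voom called higher at 6 h, were both among the 6, and the comparisons share the 6 h libraries. Isg15 fell by 0.39 log2 units (SE 0.07, adjusted p = 0.00457, limma) and Ifit1 by 0.70 (SE 0.09, adjusted p = 0.00123). The others that fell were Ifit3 (-0.90 ± 0.13), Lgals3bp (-0.78 ± 0.09), Ifi44 (-0.77 ± 0.09) and Trim30a (-0.60 ± 0.11). Irf1 (0.70 ± 0.10), Mx2 (0.50 ± 0.15), Irf9 (0.48 ± 0.12), Ifi35 (0.44 ± 0.11), Dtx3l (0.38 ± 0.12), Adar (0.36 ± 0.11) and Oasl1 (0.33 ± 0.10) rose, the last by 0.21 without the second 6 h library. In RNA none rose, against 7.53% of all transcripts (1 member was higher at an unadjusted p under 0.05, and none by voom), and 6 fell, against 8.2%: Ifit3 (-1.10 ± 0.20), Ifi44 (-0.57 ± 0.14), Ifit1 (-0.55 ± 0.15), Lgals3bp (-0.54 ± 0.11), Trim30a (-0.54 ± 0.15) and Trim25 (-0.45 ± 0.13). Only Ifit3 kept its RNA call in all 6 fits without a library. With 2 libraries against 2 an exact permutation test on a single gene cannot go below p = 0.333.

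Upstream of these genes a further 33 genes of the pathway were counted, of which 23 had a row and 20 passed the filter in footprints. At 21 h 4 rose and 3 fell in footprints, and 1 rose and 1 fell of the 18 tested in RNA, beside 18.9% and 20.2% of all transcripts in footprints and 11.6% and 12.2% in RNA. The ligands were at or near the limit of detection. Ifnb1, interferon beta, had 7 and 2 footprint reads in PBS, 0 and 0 at 6 h and 3 and 1 at 21 h, and at most 1 RNA read, where a count of 0 allows up to 3, and Ifnz had a single read in 1 library. Among receptors, Ifngr1, the ligand-binding chain for interferon gamma, was at 197 and 215 RPKM in PBS, 177 and 191 at 6 h and 129 and 139 at 21 h in footprints. The footprints fell by 0.66 log2 units at 21 h (SE 0.09, adjusted p = 0.00102, limma). Ifngr1 RNA was called lower at 21 h too (log2 -0.36 ± 0.11, adjusted p = 0.0434, limma). With 1 library left out its log2 fold change ran from -0.40 to -0.32, and the RNA call did not hold in every such fit. It was also lost under 4 of the 9 other settings. Ifnlr1, the interferon lambda receptor, rose by log2 1.56 ± 0.40 on 2 to 17 reads per library, a call that failed in 2 of the 6 fits without a library. Ifnar1, the first chain of the type I receptor, was not called in RNA. Its RNA was at 9.35 and 8.02 RPKM in PBS, 8.25 and 8.86 at 6 h and 12.1 and 11.3 at 21 h. Its footprint level was 32.8 and 28.5 RPKM in PBS, 44.2 and 43.9 at 6 h and 35.1 and 34.5 at 21 h. It stood highest in both 6 h libraries (log2 0.50 ± 0.11, adjusted p = 0.0601, limma, not called) and fell from 6 h to 21 h by 0.36 log2 units (adjusted p = 0.0429), a call that failed in 4 of those fits.

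Jak1, the kinase of all interferon receptors, was at 46.8 and 47.6 RPKM in PBS, 40.1 and 42.5 at 6 h and 32.6 and 31.8 at 21 h in footprints and fell by 0.58 log2 units (SE 0.11, adjusted p = 0.00323, limma). Irf2, which competes with IRF1 for the same sites, was at 62.8 and 55.9 RPKM in PBS, 33.8 and 37.4 at 6 h and 33.4 and 35.5 at 21 h in footprints. It was below PBS by log2 -0.74 ± 0.11 at 6 h and -0.81 ± 0.11 at 21 h, both called (adjusted p = 0.0289 and 0.000928, limma), where the first call failed in 4 of the 6 fits without a library. Socs3, an inhibitor of cytokine receptors, was at 16.8 and 22.9 RPKM in PBS, 35.7 and 37.7 at 6 h and 42.2 and 44.96 at 21 h in footprints. It rose by log2 0.87 ± 0.16 at 6 h and 1.10 ± 0.16 at 21 h (adjusted p = 0.0383 and 0.00111, limma), the first call failing in 3 of 6 such fits.

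Of the genes that induce interferon, Cgas, the DNA sensor, was at 6.70 and 8.75 RPKM in PBS, 9.95 and 11.7 at 6 h and 22.1 and 24.8 at 21 h in footprints. The footprints rose 2.86-fold at 21 h (log2 1.52 ± 0.19, adjusted p = 0.000485, limma). Cgas RNA was called higher at 21 h too (log2 0.91 ± 0.24, adjusted p = 0.0220, limma), on 20 to 44 reads per library. With 1 library left out its log2 fold change ran from 0.81 to 0.99, and the RNA call did not hold in every such fit. Sting1, its adaptor, was at 2.71 and 2.65 RPKM in PBS, 2.63 and 2.35 at 6 h and 5.50 and 5.55 at 21 h and rose by log2 0.89 ± 0.23 on 9 to 23 reads per library, with at most 3 reads in RNA, and the call failed in 3 of the 6 fits without a library (adjusted p up to 0.0746, limma). Irf3, the factor they activate by phosphorylation, was at 17.4 and 14.7 RPKM in PBS, 17.6 and 17.2 at 6 h and 19.2 and 19.8 at 21 h in footprints and was not called at log2 0.24 ± 0.14. Neither assay measures the phosphorylation of IRF3 or TBK1.

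**Figure D4:**
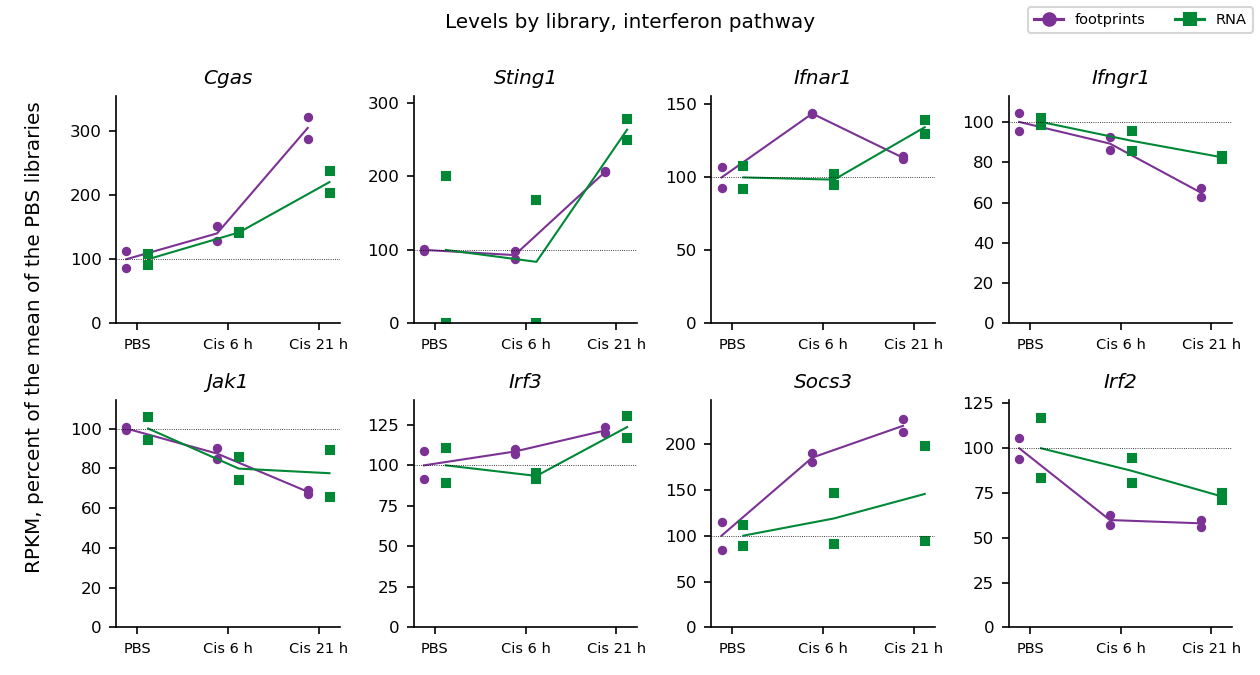
RPKM in each library as a percent of the mean of the PBS libraries, for 8 genes of the interferon pathway in footprints (circles) and RNA (squares), with lines joining the group means of 2 libraries and y axes from 0. Cgas and Socs3 footprints climb, Ifngr1 and Jak1 footprints decline to 21 h, Irf2 footprints are already low at 6 h and Ifnar1 footprints peak there, and Irf3 was not called; Sting1 RNA rests on at most 3 reads per library.

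The genomic span of each member was taken from RefSeq as a length. The members were shorter than most, with a median of 14.8 kb against 22.5 kb for the transcripts tested. Members that rose in footprints at 21 h had a median span of 10.3 kb (3.32 to 39.0 kb), those that fell 19.0 kb (5.86 to 56.2 kb) and those not called 15.3 kb. Over all transcripts the medians were 13.2 kb for those that rose, 78.5 kb for those that fell and 21.2 kb for those not called. Among the members that fell, Ifit3 was the shortest at 5.86 kb and Trim30a the longest at 56.2 kb. Among those that rose, Irf7 was the shortest at 3.32 kb and Adar the longest at 39.0 kb. The part of length in the members' changes was not tested.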

How the data were processed

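Groups, times and replicate numbers came from the sample titles. The authors deposited 1 RPKM table per library, per kilobase of coding sequence in footprints and of whole transcript in RNA. The submitters' processing notes name cutadapt, STAR and GRCm39; versions and the treatment of multi-mapping reads are not given in the sources used here. RPKM times length gave whole reads in 100% of values (tolerance 0.01). RPKM was scaled by median-of-ratios factors, transcripts with a mean of at least 1 RPKM in the assay were kept, and limma 3.58.1 (R 4.3.3, eBayes with a trend) was fitted to log2(RPKM + 0.5) on the 6 libraries of an assay, or all 12 with an interaction for TE, with two-sided Benjamini-Hochberg adjustment over all transcripts and a threshold of 0.05. Fold changes are on that scale, which understates low genes. The model was run on simulated data in which few transcripts changed, by a single set size and in footprints at 21 h only. That setting differs from these data, so it does not measure the error of the calls here. Members, role lists and pathway lists were chosen with earlier results of these data known. Every member past the threshold in a contrast, and the 3 highest by mean RPKM per assay, are given by library; of the pathway, genes past the threshold and Ifnb1, Ifnar1 and Irf3 are named. Some items of the study are not reported here. The settings varied were the pseudocount (0.1 or 1), the filter (none, or a mean of 5 RPKM), no scaling, no trend, only the groups compared, a replicate block, voom on recovered reads and leaving out each library. Promoters and gene spans came from RefSeq (GRCm38.p6), matched by symbol.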

Additional observations from a re-analysis of the deposited data

Results flagged for a closer look

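The values below were picked out because the level at 21 h differed from that at 6 h. The difference between the times was itself tested (limma, Benjamini-Hochberg over all transcripts). With 2 libraries per group, no single library can be tested as an outlier. In footprints the log2 differences of 21 h from 6 h were 0.70 for Irf1, 0.48 for Irf9, 0.50 for Mx2, 0.44 for Ifi35, 0.38 for Dtx3l, 0.36 for Adar and 0.33 for Oasl1 on the higher side. On the lower side they were -0.90 for Ifit3, -0.78 for Lgals3bp, -0.77 for Ifi44, -0.70 for Ifit1, -0.60 for Trim30a and -0.39 for Isg15. In RNA they were -1.10 for Ifit3, -0.57 for Ifi44, -0.55 for Ifit1, -0.54 for Lgals3bp, -0.54 for Trim30a and -0.45 for Trim25.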

How the results depend on the processing

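The median member had 95.5 reads per RNA library and 379.5 per footprint library, and the median standard error of its log2 fold change was 0.17 in RNA, 0.11 in footprints and 0.20 in TE, with 2 libraries per group; how far depth alone limits the calls was not tested. In footprints the number of members called was 20 at 21 h and 13 between the times, and 13 at 21 h with no variance trend. Voom called 2 footprint members at 6 h, where limma called 0, and 11 in RNA at 21 h, where limma called 7; no trend left 1 there. Between the times in RNA, where limma called 6, the count was 2 without the filter, 2 without scaling, 1 without a trend and 3 with only the groups compared. Leaving out 1 library gave 10 to 18 calls in footprints at 21 h, 7 to 12 in footprints between the times, 1 to 7 in RNA at 21 h and 1 to 4 in RNA between the times. Fewer samples enter these fits; otherwise the cause was not tested. TE gave 0 members in every setting. No result called in the main fit or in the other setting changed direction, and results called in neither were not checked for it. Deviations by replicate number correlated at -0.0349 to 0.0363 between groups of an assay and at -0.0006 to 0.017 between the assays of a group. For the other pairs of groups the range was -0.041 to 0.0366. Such values show no shared deviation and do not tell whether libraries were paired by design. With a replicate block 19 members were called in footprints at 21 h, 12 between the times, 6 in RNA at 21 h and 4 between the times. The pseudocounts and the 5 RPKM minimum changed no call of a member. Of the pathway calls, Sting1 and Ifnlr1 footprints and Cgas RNA lay below that minimum and were not tested under it.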

Other observations

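Close relatives of the members were looked up by name after the members' values had been seen, 15 in all, of which 14 had a row and 11 passed the filter in footprints. At 21 h 5 fell and 1 rose in footprints, where 20.2% and 18.9% of all transcripts did. Gbp5 and Gbp7, guanylate-binding proteins beside Gbp2 and Gbp3, fell by 1.11 and 0.97 on the log2 scale, with adjusted p of 0.00538 and 0.00198 (limma). Gbp5 had 63 to 68 footprint reads in PBS and 19 to 23 at 21 h, and Gbp7 142 to 168 and 50 to 65, so neither overlapped in reads. Trim30d, a relative of Trim30a, fell by 0.97 in footprints and by 1.44 in RNA. Ifi27l2a fell by 0.67 in footprints and 0.75 in RNA, while Ifi27l2b was higher by 0.37 in footprints with an adjusted p of 0.0424 (limma).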
